A study of Mus musculus with 23 samples.

Results

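The *Zfp* genes described here are the protein-coding genes of the mouse GENCODE annotation whose symbol is *Zfp* followed only by a number, with a mean of at least 5 CPM over the 9 RNA-seq libraries, CPM being the reads of a gene scaled to the reads on all genes of its library. *Zfp42* was left out. The rule took 256 of 344 protein-coding genes with such a symbol, and 256 of the 37310 genes that were counted. Just above the floor of 5 CPM were *Zfp235* (5.04 CPM), *Zfp689* (5.07 CPM) and *Zfp708* (5.14 CPM), and just below it were *Zfp583* (4.97 CPM), *Zfp94* (4.96 CPM) and *Zfp93* (4.95 CPM).

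RNA-seq was carried out in mouse embryonic stem cells (ESCs) of the E14 background, in 3 groups of 3 libraries. The *Zbtb11* KO libraries were from *Zbtb11* lox/lox *R26* ERt2-Cre cells given 250 nM 4-hydroxytamoxifen (4OHT) for 48 h, which activates the Cre recombinase and deletes exon 3 of *Zbtb11*. The EtOH control libraries were from the same line given ethanol for 48 h, and the 4OHT control libraries were from *Zbtb11* wt/wt *R26* wt cells given 250 nM 4OHT for 48 h. The 4OHT control therefore differed from the EtOH control in genotype, line and treatment, which cannot be told apart. The KO and EtOH control groups are 1 engineered line, which was derived from a single clone. ChIP-seq coverage came from 4 libraries made with a Zbtb11 antibody in *Zbtb11* wt/wt ESCs and 3 made with a FLAG antibody in cells with a FLAG tag at both *Zbtb11* alleles, over 7500 windows where both detected a peak. The deletion itself could not be read from the counts, because the *Zbtb11* transcripts lie within the record of *Rpl24* in this annotation.

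Reads on genes ranged from 14301457 to 23876604 per library. The pluripotency genes *Pou5f1*, *Sox2*, *Nanog*, *Esrrb*, *Tdgf1* and *Utf1* summed to between 3256 and 3824 CPM in every library, while 8 genes of other cell types (*Col1a1*, *Col1a2*, *Thy1*, *Acta2*, *Gata4*, *Gata6*, *Sox17* and *T*) summed to between 22.4 and 43.6 CPM, with *Sox17* and *T* under 1 CPM in each group. Being under the CPM filter, *Sox17* and *T* were not tested. In KO cells against the EtOH control 0 of the 6 passed, and 0 of those tested among the 8. This held with all 3 replicates, without replicate 1 and with the replicate block described next (edgeR, with 0 and 0 at an unadjusted p under 0.05 and 0 and 0 by DESeq2). Of all tested genes 0.843% were lower and 0.0558% higher with all 3 replicates. Without replicate 1 these shares were 1.35% and 0.148%, and with the block 1.79% and 0.46%. *Acta2* and *Col1a2* were lower in the 4OHT control than in the EtOH control, and with the block *Nanog* and *Utf1* were lower and *Pou5f1* and *Thy1* higher as well. Replicate 1 of the RNA-seq stood apart from replicates 2 and 3, with a common coefficient of variation between libraries of a group of 17.4% with all 3 replicates and of 6.80% without replicate 1, so results are also given without it and with the replicate number as a block, that is, with a term for each replicate number in the model.

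The zinc finger proteins are the largest family of DNA-binding factors in mammals. Each finger of the C2H2 type folds around a zinc ion and contacts a few bases, so that a row of fingers reads a longer site. Many carry a KRAB domain, which binds the corepressor Trim28; Trim28 in turn brings the histone methyltransferase Setdb1 and silences retroviral elements, a pathway that is very active in ESCs. Members of the KRAB family mostly lie in clusters of tandemly duplicated genes, and others carry a SCAN domain, through which they pair with each other, or neither. Zbtb11 is itself a zinc finger factor with a BTB domain.

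The promoter sequences shown are of genes on which the results turn, from 170 bases before to 30 bases after the annotated gene start, in the mm9 genome, read in the direction of the gene. The first 6 are from the 5 members whose mRNA was lower in *Zbtb11* KO cells both without replicate 1 and with the replicate block, *Zfp13* with 2 of its annotated starts. The last 3 are from members with a strong Zbtb11 window whose mRNA did not pass the test. Capitals mark CCGGAAG or its reverse complement CTTCCGG, the core of the site of the GABPA (NRF-2) and other ETS factors.

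Zfp580 (chr7:5002964-5003163, plus strand): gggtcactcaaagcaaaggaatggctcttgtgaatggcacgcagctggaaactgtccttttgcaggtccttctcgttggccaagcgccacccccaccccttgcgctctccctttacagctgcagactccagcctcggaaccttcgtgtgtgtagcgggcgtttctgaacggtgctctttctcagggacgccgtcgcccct
Zfp13, gene start (chr17:23736425-23736624, minus strand): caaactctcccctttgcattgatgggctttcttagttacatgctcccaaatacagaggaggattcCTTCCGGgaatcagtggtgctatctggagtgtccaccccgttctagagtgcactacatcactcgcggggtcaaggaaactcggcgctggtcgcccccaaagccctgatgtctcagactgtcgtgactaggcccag
Zfp13, second start (chr17:23723137-23723336, minus strand): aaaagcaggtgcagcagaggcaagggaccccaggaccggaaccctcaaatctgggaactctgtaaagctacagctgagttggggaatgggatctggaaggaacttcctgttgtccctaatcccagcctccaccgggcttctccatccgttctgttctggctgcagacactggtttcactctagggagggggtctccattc
Zfp770 (chr2:114027176-114027375, minus strand): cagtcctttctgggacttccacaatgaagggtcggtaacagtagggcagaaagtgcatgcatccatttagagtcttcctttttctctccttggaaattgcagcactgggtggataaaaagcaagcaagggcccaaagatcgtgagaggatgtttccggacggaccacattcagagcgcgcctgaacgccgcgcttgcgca
Zfp828 (chr8:13869471-13869670, plus strand): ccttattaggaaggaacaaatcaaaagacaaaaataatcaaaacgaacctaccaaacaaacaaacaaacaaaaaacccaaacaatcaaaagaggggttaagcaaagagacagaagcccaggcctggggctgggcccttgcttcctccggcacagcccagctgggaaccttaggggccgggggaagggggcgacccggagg
Zfp276 (chr8:125777925-125778124, plus strand): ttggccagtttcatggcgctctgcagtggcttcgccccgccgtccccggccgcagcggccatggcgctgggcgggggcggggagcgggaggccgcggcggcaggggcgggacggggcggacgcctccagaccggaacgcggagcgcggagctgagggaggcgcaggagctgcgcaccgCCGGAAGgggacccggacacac
Zfp408 (chr2:91489919-91490118, minus strand): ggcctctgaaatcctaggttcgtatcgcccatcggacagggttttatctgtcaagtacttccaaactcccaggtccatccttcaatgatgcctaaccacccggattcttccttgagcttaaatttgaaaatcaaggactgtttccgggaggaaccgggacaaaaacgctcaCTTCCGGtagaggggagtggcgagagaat
Zfp623 (chr15:75771212-75771411, plus strand): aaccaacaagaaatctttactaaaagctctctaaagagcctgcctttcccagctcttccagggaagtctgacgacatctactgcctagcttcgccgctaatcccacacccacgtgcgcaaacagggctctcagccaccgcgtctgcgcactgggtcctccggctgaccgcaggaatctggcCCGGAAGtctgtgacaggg
Zfp606 (chr7:13063472-13063671, plus strand): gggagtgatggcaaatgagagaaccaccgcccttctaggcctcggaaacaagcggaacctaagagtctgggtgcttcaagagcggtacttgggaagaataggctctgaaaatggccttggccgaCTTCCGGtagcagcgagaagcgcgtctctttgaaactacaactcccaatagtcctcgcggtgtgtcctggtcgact

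Among the members with lower mRNA, the 7 letters were found in these stretches at *Zfp276*, 9 bases into the gene, and at *Zfp13*, 105 bases before the gene start, and not at the second start of *Zfp13*, nor at *Zfp580*, *Zfp770* or *Zfp828*. They were present at each of the 3 other members shown, which are examples picked from the 17 with a strong window. *Zfp384* and *Zfp113*, also among the 17, had no match in the longer stretch described below. Within the whole Zbtb11 window at the promoter, *Zfp384* held 3 matches and *Zfp113* 0. The promoter window of *Zfp13* also held 0, so the letters marked near its gene start lie outside that window. In a stretch of 300 bases, from 250 before to 50 after the gene start, 58 of the 256 members (22.7%) held the letters on either strand, against 18.5% of the 10494 protein-coding genes with the same CPM floor and 10.8% of all 22380 protein-coding genes. At *Zfp828* they lie within that longer stretch but beyond the bases printed. The share was 9.94% for the 161 members with no Zbtb11 window at the promoter, 42.3% for 78 with a window of ordinary coverage and 52.9% for 17 with a strong one, and the same shares over all protein-coding genes with the floor were 10.1, 32.7 and 45.5%. A match is a run of letters and was not tested as a bound site.

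The levels of the members covered a wide range. Their median was 17.4 CPM, and 16 were above 100 CPM. Per kb of exon, which allows genes of different length to be compared, the median was 4.55 CPM per kb against 9.27 CPM per kb for the 10494 protein-coding genes with the same floor. The highest were *Zfp57*, a KRAB protein that keeps the methylation of imprinted regions (51.5 CPM per kb), *Zfp106*, an RNA-binding protein (50.8 CPM per kb) and *Zfp207*, a spindle assembly factor (47.3 CPM per kb). The lowest were *Zfp618* (0.636), *Zfp608* (0.699) and *Zfp629* (0.812 CPM per kb). All members together took 8670 ± 276 CPM in the EtOH control, 8643 ± 331 CPM in *Zbtb11* KO cells and 8670 ± 505 CPM in the 4OHT control (mean ± SD, n = 3 each).

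A search of the translated GENCODE coding sequences for the C2H2 pattern, with 12 residues between the second cysteine and the first histidine, gave a median of 10 fingers per member. The most were 36 in *Zfp142*, and 8 members had none, among them *Zfp36*, an mRNA decay factor whose fingers are of another type, and *Zfp259*. A KRAB profile matched 141 members and a SCAN profile 14. The KRAB members had lower levels (median 13.2 CPM and 12 fingers) than the 115 without (28.6 CPM and 7 fingers), and only 9 of the 40 members above 50 CPM matched the KRAB profile. Another *Zfp* gene lay within 100 kb of 100 of the 141 KRAB members, and of 31 of the 115 others.

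The first question was which of these genes change when Zbtb11 is lost. In *Zbtb11* KO cells against the EtOH control, 3 members were lower (*Zfp580*, *Zfp13* and *Zfp770*) and 0 were higher (adjusted p under 0.05, edgeR with all 3 replicates). Over all 14346 tested genes 0.843% were lower and 0.0558% higher. Without replicate 1, 5 members were lower and 0 higher, with *Zfp828* and *Zfp276* added, against 1.35% and 0.148% of the 14172 genes tested. With the replicate block 6 were lower and 1 higher, with *Zfp26* lower and *Zfp365* higher, against 1.79% and 0.46% of all tested genes. The members' shares thus lay near those of all genes in each fit. No member passed without replicate 3 (n = 2 per group) and 1, *Zfp580*, passed without replicate 2, while 7 members had an unadjusted p under 0.05 with all 3 replicates and 5 without replicate 3. Over all genes 21 of 14517 passed without replicate 3 and 13 of 14514 without replicate 2. An unadjusted p under 0.05 marks about 1 gene in 20 where nothing differs. The share of all tested genes at an unadjusted p under 0.05 is not given here for any fit. The median log2 fold change of the 256 members was -0.01, and that of all tested genes -0.0007. Of the members 249 (97.3%) lay within 0.3 of 0 on the log2 scale, as did 96.8% of the protein-coding genes with the same floor. All 3 KO libraries lay below all 3 EtOH control libraries in 9 members and above them in 11. Over all tested genes these shares were 2.61% and 5.44%. The median standard error of a member's log2 fold change was 0.15 with all 3 replicates and 0.089 with the block, so changes of about that size were not detectable in the respective fit. Changes several times larger could also miss the threshold. *Zfp828* and *Zfp276*, each at a log2 fold change of -0.85, did not pass with all 3 replicates. In bulk RNA, fewer cells of a type and less RNA per cell cannot be told apart.

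*Zfp580* (ENSMUSG00000055633.5, chr7:5003134-5005324, mm9), a short protein with 3 fingers, showed the largest change. Its level was 7.37, 5.78 and 7.07 CPM in the EtOH control libraries and 1.08, 1.42 and 0.942 CPM in the KO libraries. In the 4OHT control it was 10.1, 8.92 and 7.62 CPM. The KO libraries were well below every library of both controls. The log2 fold change against the EtOH control was -2.58 (SE 0.20, adjusted p = 0.000195, edgeR). Its nearest member, *Zfp865*, 18394 bases away, had a log2 fold change of 0.0026 (SE 0.18).

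*Zfp13* (ENSMUSG00000062012.6, chr17:23712811-23736454), a KRAB protein with 8 fingers, had 18.2, 17.4 and 19.0 CPM in the EtOH control and 5.05, 6.02 and 7.14 CPM in KO cells. In the 4OHT control it had 18.0, 22.5 and 21.0 CPM, so the KO libraries did not overlap with either control. The log2 fold change was -1.62 (SE 0.16, adjusted p = 0.000765, edgeR). *Zscan10*, a pluripotency-associated gene whose start lies in the same promoter interval, had 109 ± 20.5 CPM in the EtOH control and 107 ± 20.3 CPM in KO cells (SD, n = 3).

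*Zfp770* (ENSMUSG00000040321.3, chr2:114019197-114027205), with 10 fingers and no KRAB match, had 29.9, 32.4 and 37.0 CPM in the EtOH control and 13.5, 15.1 and 16.6 CPM in KO cells. In the 4OHT control the values were 25.3, 30.9 and 35.7 CPM. Every KO library was below every control library, with log2 differences of -1.12, -1.07 and -1.13 in replicates 1, 2 and 3. The fitted log2 fold change was -1.17 (SE 0.16, adjusted p = 0.00811, edgeR).

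*Zfp828* (ENSMUSG00000047710.7, chr8:13869641-13881639), listed by RefSeq as *Champ1*, a protein of kinetochore and spindle attachment, was the most abundant of the 5, and it overlaps a *SNORA3* record on the same strand. It had 73.5, 102 and 105 CPM in the EtOH control, 43.3, 56.0 and 60.4 CPM in KO cells and 84.7, 104 and 117 CPM in the 4OHT control. Replicate 1 was the lowest library in each group, every KO library was below every control library, and within each replicate the KO library was lower, with log2 differences of -0.76, -0.86 and -0.80. The log2 fold change of -0.85 (SE 0.20) had an adjusted p of 0.181 with all 3 replicates, of 4.2e-05 without replicate 1 and of 6.9e-10 with the replicate block (edgeR).

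*Zfp276* (ENSMUSG00000001065.8, chr8:125778095-125793645), with 5 fingers, had 7.52, 7.87 and 7.03 CPM in the EtOH control, 3.42, 4.51 and 4.76 CPM in KO cells and 6.22, 9.28 and 8.70 CPM in the 4OHT control. The KO libraries lay below every library of both controls. The log2 fold change was also -0.85 (SE 0.20), with an adjusted p of 0.186 with all 3 replicates, 0.0376 without replicate 1 and 0.000425 with the replicate block (edgeR). It shares its promoter with the gene *1300018I17Rik*, which is read in the opposite direction and was higher in KO cells, at 18.0 ± 1.55 CPM against 9.37 ± 0.954 CPM (SD, n = 3, log2 fold change 0.91, SE 0.13, adjusted p = 0.0095, edgeR). *Zfp276* also overlaps the record *Gm20388* on the same strand and *Fanca* on the other, and 1 or more stretches of its transcript are near-identical to another gene, so its count is uncertain. *Fanca* and *1300018I17Rik* reads are kept apart from it only if strand was used in the counting.

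*Zfp26*, a KRAB protein with 22 fingers, and *Zfp365*, with no C2H2 match, passed with the replicate block and neither with all 3 replicates without it nor without replicate 1 (adjusted p = 0.0127 and 0.00583, edgeR). *Zfp26* had 48.6, 47.5 and 53.7 CPM in the EtOH control and 41.2, 41.6 and 44.2 CPM in KO cells, a log2 fold change of -0.28 (SE 0.11). *Zfp365* had 47.4, 34.8 and 38.8 CPM in the EtOH control and 56.96, 43.84 and 50.37 CPM in KO cells, a log2 fold change of 0.29 (SE 0.15). The KO libraries of *Zfp26* lay below those of the EtOH control and overlapped the 4OHT control. For *Zfp365* the groups overlapped, and the KO library was the higher one within each replicate.

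**Figure D1:**
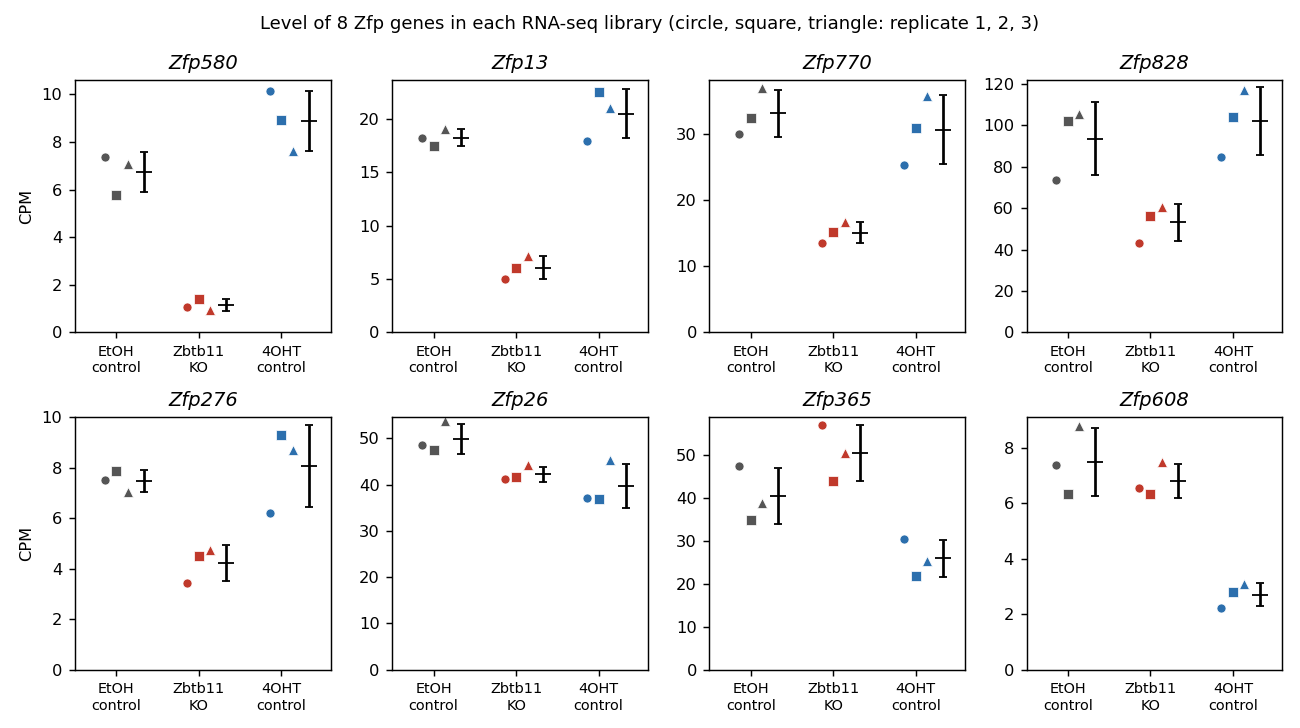
CPM of 8 *Zfp* genes in each of the 9 RNA-seq libraries, by group, with the mean ± SD (n = 3) as a bar beside the points and the replicates as circles, squares and triangles. *Zfp580*, *Zfp13*, *Zfp770*, *Zfp828* and *Zfp276* are lowest in *Zbtb11* KO cells, with no overlap with either control, while *Zfp365* and *Zfp608* are lowest in the 4OHT control. In 9 of the 256 members all 3 KO libraries lay below all 3 EtOH control libraries, and in 11 above. Of all tested genes 2.61% lay below and 5.44% above in this way.

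*Zfp11*, with a mean of 3.93 CPM, was under the floor and is not counted among the members. Its level went from 5.99, 4.73 and 5.46 CPM in the EtOH control to 0.961, 1.08 and 0.942 CPM in KO cells, and its promoter window had a Zbtb11 coverage of 784. A floor of 1 CPM, with 317 genes, would have added it to those lower.

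The second question was where Zbtb11 is found at these promoters. A coverage window overlapped the promoter, from 2 kb upstream to 500 bases downstream of the gene start, of 95 of the 256 members (37.1%), against 33.5% of the 10494 protein-coding genes with the same floor. Coverage is the read count over a window, normalised between libraries by the authors. The 95 promoters held 93 distinct windows, since *Zfp646* and *Zfp668*, and *Zfp617* and *Zfp882*, share one. The centre of the window was within 500 bases of the gene start for 82 of 95 members. The distinct windows had a median coverage of 104 (quartiles 60.6 and 254), against 105 over the 3131 windows at promoters of all protein-coding genes with the floor and 71.3 over all 7500 windows. In the FLAG-Zbtb11 libraries the median was 99.5. No member had a promoter peak in the list made with the FLAG antibody in cells without the tag.

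Strong, or Zbtb11-high, windows are those above 309, which is 1.5 interquartile ranges above the upper quartile of all windows, and there were 857. Of the members 17 (6.64%) had one, against 7.1% of the protein-coding genes with the same floor. The lowest of these was *Zfp58* (329), and the highest below the limit was *Zfp105* (305). At the *Zfp276* promoter (chr8:125777458-125778658), ranked 3 of all windows, the 4 Zbtb11 antibody libraries gave 911, 1244, 831 and 1742, and the FLAG-Zbtb11 libraries 1132, 1060 and 607. Next came the window that *Zfp646* and *Zfp668* share, whose starts lie on opposite strands (1014 ± 292, mean ± SD, n = 4), *Zfp384* (967 ± 175), and *Zfp408* (958 ± 292), which shares its promoter interval with the start of *Arhgap1*. *Zfp828* had 678 ± 254, *Zfp113* 667 ± 121, *Zfp623* 656 ± 153, *Zfp770* 631 ± 205 and *Zfp606* 561 ± 148. Neighbours in this order differed by less than the larger of their 2 SDs.

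**Figure D2:**
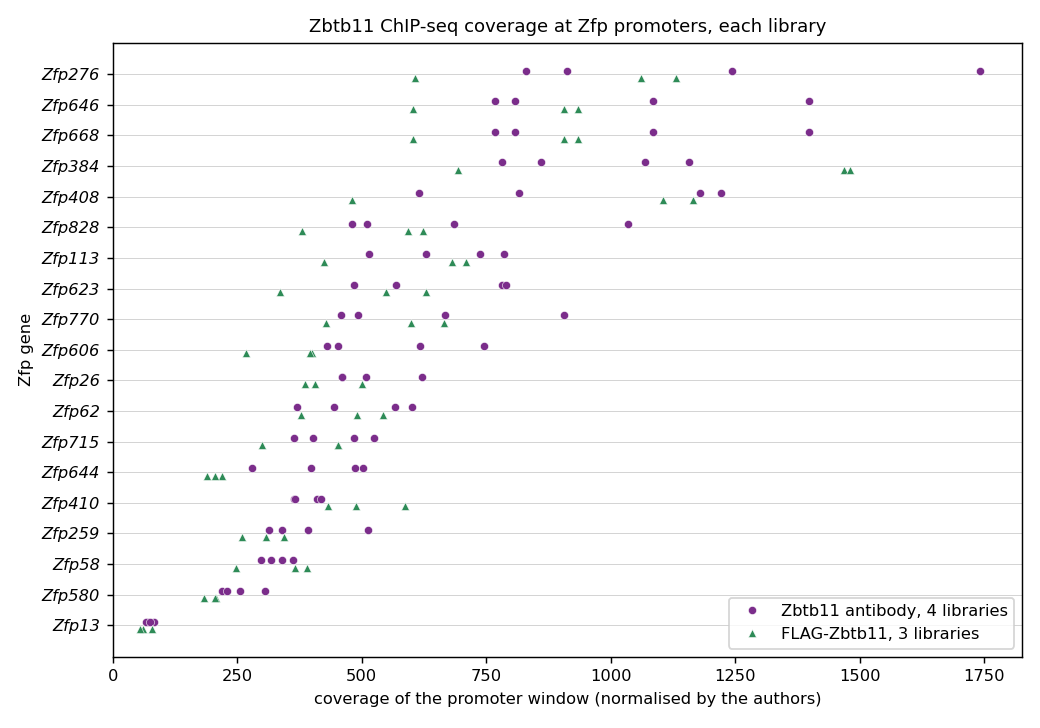
Coverage of the promoter window in each of the 4 Zbtb11 antibody libraries (circles) and 3 FLAG-Zbtb11 libraries (triangles) for the 17 members with a strong window and for *Zfp580* and *Zfp13*. The libraries at *Zfp276* run from 607 to 1742 and those near the gene start of *Zfp13* stay under 100.

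By the window at the gene start, the largest changes in mRNA among the members were not at the strongest windows. *Zfp580* had a window of 252 ± 38.4 (SD, n = 4), under the limit, with its centre 838 bases after the gene start, and *Zfp13* had 73.3 ± 6.89 near its gene start, rank 3665 of 7500. The *Zfp13* gene also held a window of 637 ± 222 centred 104 bases before its second annotated start and one of 532 ± 111 centred 6667 bases into the gene, both chosen for mention after their values were seen. Among the 17 members with a strong window, 13 had a log2 fold change within 0.15 of 0, *Zfp384* with 0.0053 (SE 0.18), *Zfp646* with -0.01 (SE 0.070) and *Zfp408* with 0.10 (SE 0.12) among them. The other 4 were *Zfp276*, *Zfp828*, *Zfp770* and *Zfp26*.

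Members were classed by the window at the gene start. *Zfp13* therefore counts as a member with a window under the limit (73.3), although a window of 637 lies at its second annotated start. By class of window, 1 of the 17 members with a strong window, 2 of 78 with a window under the limit and 0 of 161 with none were lower in KO cells with all 3 replicates, and 3, 2 and 0 were lower without replicate 1. With the replicate block it was 4, 2 and 0, so each of the 6 members that was lower in any of these 3 fits had a window, and *Zfp365*, higher with the block, had none. Of the protein-coding genes with the same floor 12.8% with a strong window, 0.18% with a window under the limit and 0.158% with none were lower with all 3 replicates, 20.5, 0.252 and 0.201% without replicate 1, and 24.7, 0.505 and 0.53% with the block. Across the 95 members with a window, log2 coverage and log2 fold change had a Pearson r of -0.23 and a Spearman rho of -0.26, as a description, since genes are not independent replicates.

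**Figure D3:**
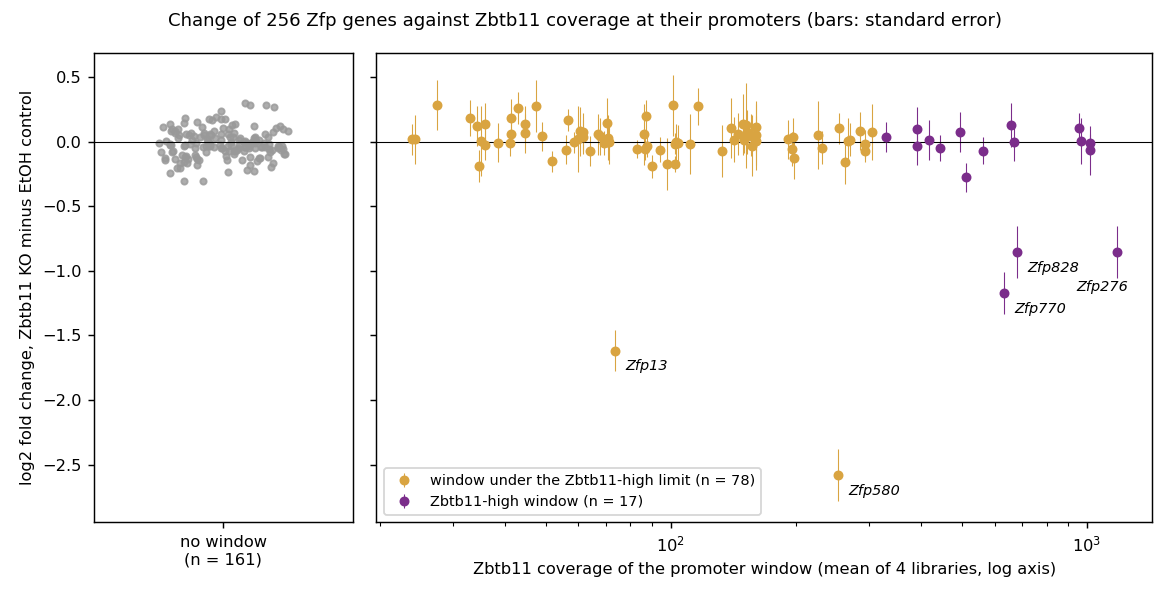
Log2 fold change of the 256 members in *Zbtb11* KO cells against the EtOH control, for 161 members without a promoter window (left) and for 95 with one, against the mean Zbtb11 coverage of the window on a log axis (bars are the SE). *Zfp13* and *Zfp580* lie lowest at 73.3 and 252, and 13 of the 17 members with a strong window lie within 0.15 of 0. *Zfp13* is placed by the window near its gene start, and a window of 637 lies at its second annotated start.

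Zbtb11 windows were found in KRAB and other members. A window was present at 47 of 141 KRAB promoters (33.3%) and 48 of 115 others (41.7%), and a strong one at 5 and 12. The 5 KRAB members with a strong window were *Zfp113*, *Zfp26*, *Zfp58*, *Zfp606* and *Zfp715*. Of the 14 SCAN members 9 had a window and 0 a strong one. These shares were not tested against each other. In KO cells 1 of the 141 KRAB members and 2 of the 115 others were lower with all 3 replicates, 1 and 4 without replicate 1 and 2 and 4 with the block, against 0.843%, 1.35% and 1.79% of all tested genes.

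Runs of 4 or more members with gaps of at most 100 kb held 53 members in 9 runs, of which 48 matched the KRAB profile. The largest, 13 members from *Zfp84* to *Zfp146* on chromosome 7 (chr7:30553571-30954746), held 10 KRAB members and 4 with a window, none of them strong. Its log2 fold changes in KO cells ran from -0.22 to 0.26 with a median of -0.02, and none passed. The run on chromosome 9 (*Zfp26*, *Zfp426*, *Zfp266* and *Zfp846*) had a window at each of 4 promoters, and the strong one at *Zfp26* stood 8387 bases from *Zfp426*, whose window had 23.9. In KO cells against the EtOH control 0 of the 53 members in these runs passed with all 3 replicates (edgeR, with 1 at an unadjusted p under 0.05 and 0 by DESeq2, against 0.843% lower and 0.0558% higher over all tested genes), and 1, *Zfp26*, was lower with the block. In the 4OHT control against the EtOH control *Zfp60* and *Zfp260* were lower and *Zfp229* higher with all 3 replicates, against 2% and 2.05% of all tested genes, and 13 were lower and 2 higher with the block, against 16.5% and 17%.

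The 4OHT control was compared with the EtOH control as the study's check on 4OHT. Here 7 members were lower and 4 higher (adjusted p under 0.05, edgeR, all 3 replicates), against 2% and 2.05% of all tested genes. With the replicate block 41 were lower and 33 higher, against 16.5% and 17% of all tested genes, so the members' counts lay near the background in both fits. With edgeR 0 passed without replicate 2 or without replicate 3, where 20 and 25 had an unadjusted p under 0.05. Over all genes 13 of 14514 and 24 of 14517 passed in these fits, and their shares at an unadjusted p under 0.05 are not given here. The 7 that were lower were *Zfp608*, *Zfp422*, *Zfp365*, *Zfp248*, *Zfp60*, *Zfp260* and *Zfp292*, and the 4 that were higher were *Zfp869*, *Zfp629*, *Zfp229* and *Zfp41*. None of the 5 members lower in KO cells passed in this comparison with all 3 replicates, with log2 fold changes from -0.12 (*Zfp770*) to 0.39 (*Zfp580*). *Zfp580* was higher in the 4OHT control with the block (adjusted p = 0.0297, edgeR).

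*Zfp608* had 7.37, 6.32 and 8.77 CPM in the EtOH control, 6.55, 6.32 and 7.49 CPM in KO cells and 2.24, 2.81 and 3.07 CPM in the 4OHT control, a log2 fold change of -1.46 (SE 0.19, adjusted p = 0.00554, edgeR). *Zfp869*, a KRAB protein with 12 fingers, had 4.24, 3.85 and 3.04 CPM in the EtOH control, 4.63, 3.58 and 3.52 CPM in KO cells and 8.81, 10.8 and 10.0 CPM in the 4OHT control, a log2 fold change of 1.41 (SE 0.17, adjusted p = 0.004, edgeR). In both genes the 2 groups of the engineered line overlapped and the 4OHT control stood apart. The other 9 had log2 fold changes from -0.82 (*Zfp422*) to -0.31 (*Zfp292*) and from 0.54 (*Zfp41* and *Zfp229*) to 1.08 (*Zfp629*).

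**Figure D4:**
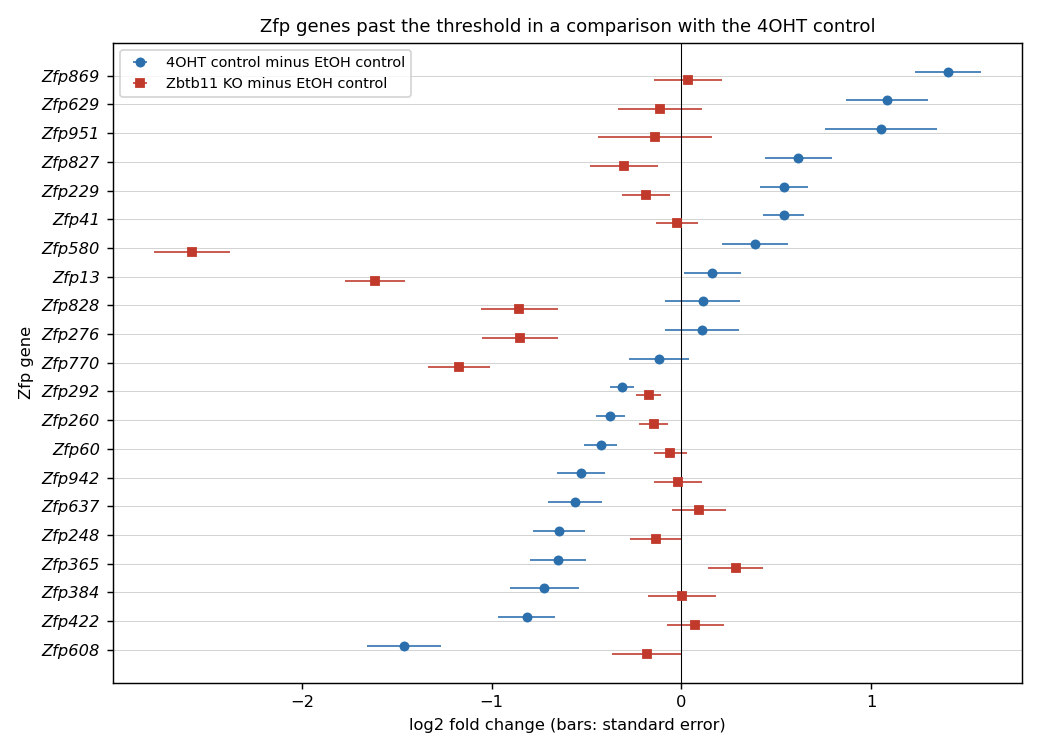
Log2 fold change of the 4OHT control (circles) and of *Zbtb11* KO cells (squares) against the same EtOH control libraries for the 21 members past the threshold in a comparison with the 4OHT control, with the SE as bars. *Zfp608* and *Zfp869* lie at the ends for the 4OHT control, at -1.46 and 1.41, and *Zfp580* and *Zfp13* for KO cells, at -2.58 and -1.62.

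On chromosomes 6 and 8 the differences of the 4OHT control from the EtOH control were shared by members and neighbouring genes. On chromosome 8 the 16 members had a median log2 fold change of 0.22 and 8 were higher and 0 lower with the block, and the other 742 tested genes there had a median of 0.26, with 53.6% higher and 3.1% lower. On chromosome 6, the 8 members below 60 Mb had log2 fold changes between -0.03 and 0.22. The 5 members between 116574034 and 124987883 (*Zfp422*, *Zfp637*, *Zfp239*, *Zfp248* and *Zfp384*) had values between -0.90 and -0.56. The other genes of chromosome 6 had medians of -0.04, 0.02, -0.05, -0.06 and -0.0069 in the 20-Mb steps up to 100 Mb, and of -0.57, -0.52 and -0.61 in the 3 steps from 100 Mb on. In *Zbtb11* KO cells against the EtOH control the median of the other genes was -0.01 on chromosome 6 and -0.0011 on chromosome 8. On the other chromosomes the median of other genes in the 4OHT control was between -0.04 and 0.02. The part of chromosome position in the differences of the members on these 2 chromosomes was not tested. Among the 227 members elsewhere, 5 were lower and 3 higher in the 4OHT control with all 3 replicates, against 1.42% and 1.76% of the 12923 tested genes elsewhere, and 36 were lower and 24 higher with the block, against 16.05% and 15.3%.

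**Figure D5:**
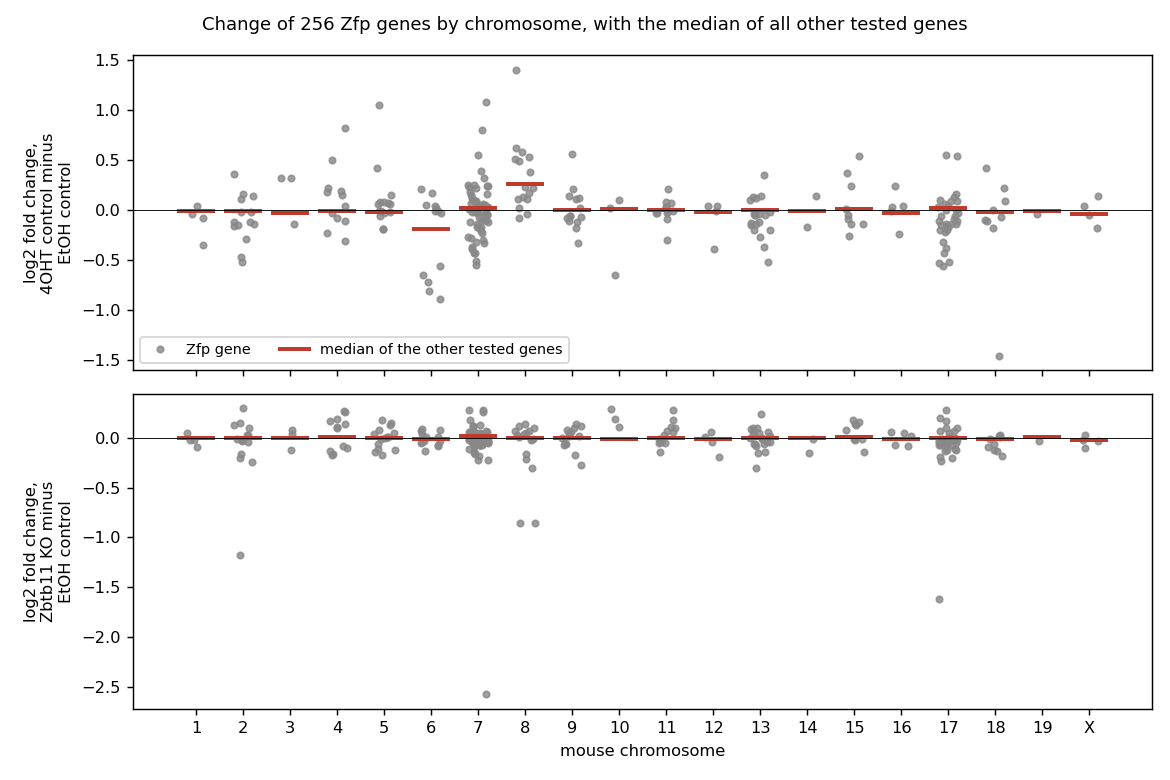
Log2 fold change of each member by chromosome (points, spread sideways for view) and the median of all other tested genes of the chromosome (bars), in the 4OHT control (top) and in *Zbtb11* KO cells (bottom) against the EtOH control. In the top panel the bar stands at 0.26 on chromosome 8 and at -0.19 on chromosome 6, and in the bottom panel all bars lie near 0.

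Compared directly with the 4OHT control, *Zbtb11* KO cells had 11 members lower and 7 higher, against 3.72% and 2.73% of all tested genes. With the replicate block 39 were lower and 36 higher, against 18.1% and 16.8%, so these shares too lay near the background. Without replicate 2, 1 member passed, and without replicate 3, 2 did, against 82 of 14514 and 114 of 14517 genes. Among those lower were *Zfp580*, with a log2 fold change of -2.97 (SE 0.20), *Zfp13* with -1.78 (SE 0.16), *Zfp770* with -1.06 (SE 0.16), *Zfp828* with -0.97 (SE 0.20) and *Zfp276* with -0.96 (SE 0.20), so both genes that missed the threshold against the EtOH control passed here (adjusted p = 0.023 for *Zfp828* and 0.0237 for *Zfp276*, edgeR). Of the others, *Zfp608*, *Zfp365*, *Zfp422*, *Zfp384*, *Zfp637*, *Zfp942* and *Zfp60* were higher and *Zfp869*, *Zfp629*, *Zfp951*, *Zfp827*, *Zfp229* and *Zfp41* lower. The 3 comparisons share libraries, so these calls are not independent of those above. Of those lower, *Zfp828*, *Zfp276*, *Zfp869* and *Zfp827* lie on chromosome 8, and of those higher *Zfp422*, *Zfp384* and *Zfp637* lie on distal chromosome 6, where the 4OHT control differed as described, and the part of chromosome position in these 7 was not tested. Among the 227 members outside chromosomes 6 and 8 the counts were 7 lower and 4 higher, against 3.27% and 2.1% of the 12923 tested genes there, and with the block 28 lower and 31 higher, against 16.4% and 16.3%.

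Members with well-known roles in ESCs, chromatin or RNA were followed as a list of 29 genes, chosen with earlier results known. It held 27 members, of which 0 were lower and 0 higher in KO cells with all 3 replicates or with the block. Of all tested genes 0.843% were lower and 0.0558% higher with all 3 replicates, and 1.79% and 0.46% with the block. The counts of 0 thus lay near the background. The log2 fold changes of the 27 lay between -0.30 (*Zfp827*, a telomere-associated protein) and 0.18 (*Zfp326*, an mRNA processing factor). By edgeR 1 of the 27 had an unadjusted p under 0.05, and DESeq2 called 0. *Zfp57* had 187 ± 26.6 CPM in the EtOH control and 193 ± 46.8 CPM in KO cells. *Zfp809*, which recruits Trim28 to retroviral DNA, had 15.6 ± 2.22 and 16.3 ± 4.42 CPM, and *Zfp568*, a repressor of a placental *Igf2* transcript, 233 ± 36.6 and 228 ± 26.9 CPM. *Zfp281*, a regulator of pluripotency, had 124 ± 22.8 and 125 ± 22.7 CPM, *Zfp143*, a promoter-binding activator, 46.3 ± 8.93 and 40.6 ± 7.20 CPM, and *Zfp598*, a ubiquitin ligase for stalled ribosomes, 106 ± 5.99 and 108 ± 6.76 CPM (all SD, n = 3). A window was present at 10 of the 27 promoters and a strong one at 0. In the 4OHT control *Zfp292* was lower with all 3 replicates, where 2% of all tested genes were lower and 2.05% higher. With the block 5 of the 27 were lower and 6 higher, against 16.5% and 17% of all tested genes. Among those higher were *Zfp423* (log2 fold change 0.53, SE 0.31 with all 3 replicates) and *Zfp462* (0.50, SE 0.18). *Zfp423* lies between 80 and 100 Mb on chromosome 8, where the other genes had a median of 0.26 in this comparison. The part of chromosome position in its difference was not tested.

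The partners of the KRAB proteins in silencing were also examined. Of 18 such genes 0 were lower and 0 higher in KO cells against the EtOH control with all 3 replicates, without any single replicate and with the block. Of all tested genes 0.843% were lower and 0.0558% higher with all 3 replicates, 1.35% and 0.148% without replicate 1, and 1.79% and 0.46% with the block. Without replicate 2, 13 of 14514 genes passed, and without replicate 3, 21 of 14517. The counts of 0 thus lay near the background. The log2 fold changes of the 18 had a median of -0.02. By edgeR 0 of the 18 had an unadjusted p under 0.05 with all 3 replicates, and DESeq2 called 0. *Trim28*, the most abundant (1981 CPM over all libraries), had a log2 fold change of -0.01 (SE 0.22) and *Setdb1* one of -0.11 (SE 0.15). None had a strong window, and *Pphln1*, of the HUSH silencing complex, had the highest coverage (265). In the 4OHT control *Uhrf1*, which guides the maintenance of DNA methylation, was lower (log2 fold change -0.29, SE 0.06, adjusted p = 0.0299, edgeR), a call lost without replicate 2 and without replicate 3. With all 3 replicates 2% of all tested genes were lower there and 2.05% higher. With the replicate block 8 of the 18 were lower and 0 higher there, against 16.5% and 17% of all tested genes. In KO cells against the 4OHT control 0 passed with all 3 replicates (edgeR, with 4 at an unadjusted p under 0.05 and 4 by DESeq2). Of all tested genes 3.72% were lower and 2.73% higher in that edgeR fit, and 1469 of 14346 passed by DESeq2. With the block 1 of the 18 was lower and 8 were higher, against 18.1% and 16.8%. The last 2 comparisons share the 4OHT control libraries.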

How the data were processed

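Values were taken from the deposited files. Per the labels and the study's methods, the authors prepared directional RNA-seq libraries after depletion of ribosomal RNA, used TrimGalore and PRINSEQ for trimming and STAR for alignment, and obtained reads per gene with HTSeq. The deposited counts are raw counts. Between 25.3 and 31.6% of the reads of a library were in no gene. The strand setting of the counting is not given in the sources used here, so reads of overlapping genes on opposite strands may not be told apart. ChIP-seq reads were trimmed with Cutadapt, aligned to mm9 with Bowtie 1.1.2, freed of duplicates with Picard and called with MACS2 under IDR over all replicates of a ChIP. The deposited coverage (signal) had been normalised by the authors, with DiffBind, across libraries, so differences in depth between ChIP libraries cannot be read from it. Columns with the authors' mean coverage were not used, and the input libraries were not analysed here.

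Genes over 1 CPM in at least 3 of the 9 libraries (2 where a replicate was left out) were fitted together in edgeR 4.0.16 (R 4.3.3; TMM, legacy quasi-likelihood test, two-sided). Benjamini-Hochberg adjustment ran over every gene tested, with a threshold of 0.05. All 256 members were tested, and SE is that of the log2 fold change from this test. The fit was tested on simulated data. Log2 differences within a replicate used a pseudocount of 0.5 CPM. Libraries with the same replicate number deviated together from their group means (r from 0.476 to 0.843 for the 9 pairs, against -0.775 to 0.554 for the 18 pairs with different numbers). Replicates 2 and 3 were less distinct: EtOH control 2 had an r of 0.476 with 4OHT control 2 and of 0.554 with 4OHT control 3. Since every r within a number was over 0.1, the number was taken to pair the samples, and counts with this block are given beside those without it. Pairs of replicate 2 with replicate 3 were also over 0.1 (0.318 to 0.554), so this rule does not tell these 2 numbers apart. Replicates are biological by the study's methods, with 1 line behind each group, and p values measure the spread between such libraries.

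Members and lists were chosen with earlier results of these data known. The genes named were the members past the threshold in KO cells in any of 3 fits, up to 10 by size in the other comparisons, those the study lists from these same libraries, the 8 with the highest coverage, the 3 highest and lowest per kb, and a list with known roles; others are named as examples of a class. Domains were searched with HMMER 3.4 (E at most 1e-05) from pattern seeds, and near-identical stretches (at least 100 bases, 95% identity, found for 39 members) with blastn 2.17.0; 29 members overlap another gene on the same strand. All 256 members matched RefSeq by symbol or synonym, 10 under another current symbol. Alternatives were DESeq2 1.42.0, library sizes in place of TMM, other filters, a threshold of 0.01, fewer groups, each replicate left out, the block, other member rules, and other promoter definitions, peak lists and libraries for coverage. The count without chromosomes 6 and 8 and the *Zfp13* windows were added after seeing the data.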

Additional observations from a re-analysis of the deposited data

How the results depend on the processing

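For *Zbtb11* KO cells against the EtOH control, where 3 members passed, the count was 5 with DESeq2, 7 with the replicate block and 0 to 5 when 1 replicate was left out (0 without replicate 3, 1 without replicate 2 and 5 without replicate 1). For the 4OHT control against the EtOH control, where 11 passed, it was 21 with DESeq2, 6 with no filter on low counts, 74 with the replicate block, 2 with only the 6 libraries of these groups, 2 at an adjusted p under 0.01 and 0 to 46 with a replicate left out. For KO cells against the 4OHT control, where 18 passed, it was 75 with the block, 8 at 0.01, 11 outside chromosomes 6 and 8 and 1 to 50 with a replicate left out. With a replicate left out, the counts over all genes ran from 13 to 212, 13 to 2420 and 82 to 2645 in these 3 comparisons. By DESeq2, 180 of 14346 tested genes passed in the first of them and 1187 of 14346 in the second. Counts without replicates 2 or 3 rest on the pair that holds replicate 1, with a common coefficient of variation of 22.3 and 19.7% against 6.8% without replicate 1. The other causes were not tested. Member windows numbered 17 when only strong ones were counted and 72 to 110 under the other definitions, and their median coverage of 104 was 108 to 117 with each Zbtb11 antibody library left out. For the silencing partners in KO cells the block left the count against the EtOH control at 0, and against the 4OHT control 1 was lower and 8 were higher with it. Of 324 values for single genes under an alternative, 0 changed direction, 87 lost and 8 gained the threshold. The spread between replicates set a median SE of 0.15 on the log2 scale, or 0.089 with the block, and coverage holds no read depth.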
